A study of Mus musculus with 6 samples.

Results

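Mitochondrial complex I subunits of the nuclear genome were described in mouse cultures labelled as CD8+ T cells. The cultures received sphingosine 1-phosphate (S1P), a signalling lipid that acts through cell surface receptors, or vehicle. The subunits were taken as the protein-coding genes whose GENCODE symbol is Nduf followed by a, b, c, s or v and a number. This rule found 37 genes among the 56941 identifiers of the count table, and all 37 passed the filter on low counts that left 13299 genes to test. They comprised 7 core subunits, which have counterparts in the bacterial enzyme, and 30 accessory subunits.

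Complex I is the entry point of electrons from NADH into the respiratory chain. Its matrix arm holds the N module, which oxidises NADH on a flavin, and the Q module, which passes the electrons over iron-sulfur clusters to ubiquinone, while the membrane arm pumps protons. The nuclear core subunits all belong to the matrix arm, the core subunits of the membrane arm are encoded by mitochondrial DNA, and accessory subunits surround both arms. Activated T cells build up mitochondria and respiration together with glycolysis as they grow and divide.

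The series holds 6 RNA-seq libraries of poly(A) RNA, 3 from vehicle cultures and 3 from S1P cultures. By the labels, all were made from naive CD8+ T cells purified from the spleens of B6 mice, while the study's culture methods also name total splenocytes. They were grown for 3 days in recombinant IL2 on plates coated with activating anti-CD3 and anti-CD28. S1P at 5 µM, or vehicle alone, was added 24 h into the activation, so both groups shared the activating antibodies and the cytokine. The labels call the libraries biological replicates without naming the animals behind them, so the p-values measure the spread between these 3 and 3 samples.

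Total counts ranged from 12048880 to 17384084 per library, and the 37 subunits took 0.142% to 0.167% of them. S1P replicate 2 stood apart from the other libraries: mitochondrially encoded genes made up 7.80% of its counts, against 4.10% to 4.93% in the other 5. Its counts differed from those of the other S1P libraries by a chi-square per gene of 17.9 and 31.4, where S1P replicates 1 and 3 differed by 5.97 and the vehicle pairs by 3.77 to 3.97. Called subunits and the counts of the main lists are therefore given with and without it, as are some other values that it moved. Tallies of groups that did not overlap use all 6 libraries. Of the 7 T cell markers, Cd8a (log2 fold change -0.67) and Cd8b1 (-0.55) were lower with S1P, and the summed level of the 7 was 1389.5 to 1639 CPM (counts scaled by library size) in vehicle and 1198 to 1365 in S1P libraries. Cd4, the mark of helper T cells, was at 186 to 223 CPM in vehicle and 195 to 254 in S1P libraries, beside 207 to 251 and 132 to 144 CPM for Cd8a. The 4 B cell markers, of which Ms4a1 was lower (-0.39), summed to 370.3 to 459 and 341 to 374 CPM, myeloid markers to 3.59 to 4.50 and 2.98 to 5.62, natural killer markers to 1.04 to 1.39 and 0.550 to 1.76, and erythroid markers to 0.293 to 0.807 and 0.263 to 1.02. Transcripts of Cd4 and of B cells were thus present beside those of Cd8a, so the subunit levels are those of the whole cultures. The part of the marker shifts in the results was not tested. In such bulk samples fewer cells of a type cannot be told apart from less RNA per cell.

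With S1P, 10 of the 37 complex I subunits were lower and 2 were higher. The lower ones were the core subunits Ndufs7, Ndufv1 and Ndufs1 and the accessory subunits Ndufa11, Ndufb6, Ndufb8, Ndufb7, Ndufa4, Ndufb11 and Ndufa9, with log2 fold changes from -0.67 to -0.31. Ndufv3 and Ndufa12, both accessory subunits of the NADH-oxidising module, were higher, at 0.89 and 1.15, the latter not with DESeq2 or limma-voom. Genes were called on 2 thresholds. The p from edgeR's quasi-likelihood model, adjusted over all tested genes by Benjamini-Hochberg, had to be under 0.05. The log2 fold change had to be at least 0.3 in size. By that rule 23.1% of all tested genes were called, 10.4% lower and 12.7% higher. The log2 fold change was below 0 for 26 of the 37 subunits and for 48.5% of all tested genes, and its median was -0.17 over the subunits and 0.01 over all tested genes. The 3 S1P libraries lay below all 3 vehicle libraries for 14 subunits and above them for 1, while the groups overlapped for 22. Over all tested genes the corresponding shares were 22.6% and 23%, 45.6% in all.

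Without S1P replicate 2, 6 subunits were called lower, namely Ndufa11, Ndufa4, Ndufb6, Ndufb7, Ndufb8 and Ndufs1, beside a background of 9.17% of tested genes lower. Ndufv3 was then the only one called higher, beside a background of 11.6% higher and 20.8% in either direction. The log2 fold change was then below 0 for 29 of the 37 subunits, Ndufb10, Ndufb3 and Ndufa13 having turned from above 0, and for 49.5% of all tested genes, and the median of the subunits was -0.12. Ndufv1 and Ndufa9 kept an adjusted p under 0.05 but missed the size threshold, whereas Ndufs7 and Ndufb11 missed both thresholds and Ndufa12 missed that on p. Over the 6 fits that each left out 1 library, vehicle libraries included, Ndufa11 was called lower in 6, Ndufb7 in 5, Ndufb6, Ndufa9, Ndufv1 and Ndufs1 in 4, Ndufb8 and Ndufa4 in 3, and Ndufs7 and Ndufb11 in 2. Upper-quartile scaling ended the calls of Ndufs1 and Ndufv1, and an offset for transcript length those of Ndufa9, Ndufb11 and Ndufv1.

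**Figure D1:**
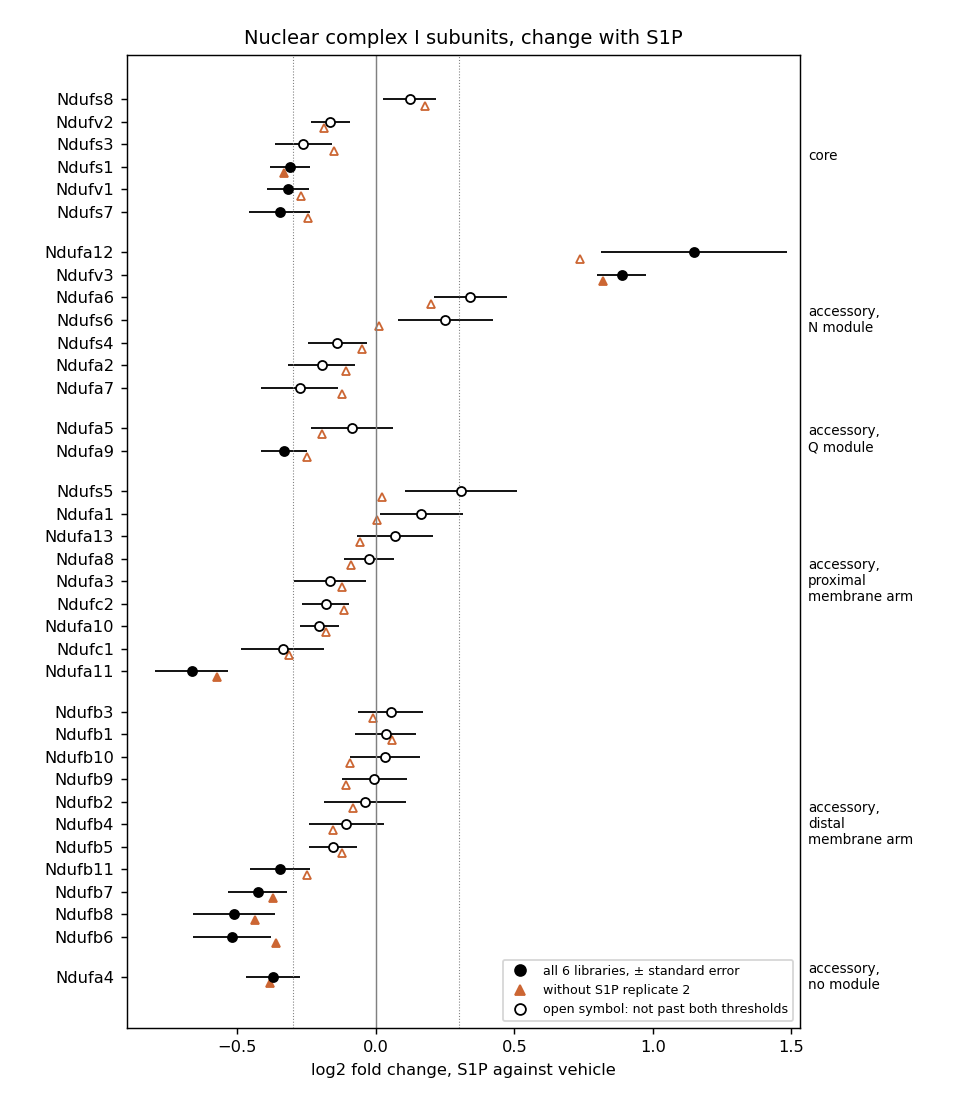
Log2 fold change of S1P against vehicle (x axis) for 36 of the 37 subunits, grouped into core subunits and accessory subunits by module. Circles show the estimate from all 6 libraries ± standard error and triangles the estimate without S1P replicate 2; filled symbols passed both thresholds, dotted lines mark -0.3 and 0.3. The core subunits shown lie left of 0 except Ndufs8, while the accessory subunits run from -0.67 for Ndufa11 to 1.15 for Ndufa12.

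The core subunits were examined first. Of the 7, 3 were called lower, beside 10.4% of all tested genes, and 6 had a log2 fold change below 0, beside 48.5%. For those same 6 no S1P library reached the lowest vehicle library, as for 22.6% of all tested genes. The median log2 fold change of the 7 was -0.27. Without S1P replicate 2 it was -0.23 and 1 was called lower, beside 9.17% of tested genes. No core subunit was called higher by edgeR, beside 12.7% of all tested genes, or by DESeq2 or limma-voom. None was higher at an unadjusted p under 0.05.

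Ndufv1 binds NADH and the flavin and so takes up the electrons. Its level was 70.8, 71.1 and 78.9 CPM in the vehicle libraries and 60.8, 55.3 and 61.0 in the S1P libraries. All S1P libraries lay below all vehicle libraries, and the log2 fold change was -0.32 ± 0.08 (SE, n = 3 per group; edgeR adjusted p = 0.00959). Without S1P replicate 2 it was -0.27 (edgeR adjusted p = 0.00890), which is past the p threshold and inside the size threshold.

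Ndufs1, the largest subunit of the enzyme, carries iron-sulfur clusters of the N module. It was at 129, 140.5 and 125 CPM in vehicle and 99.5, 109 and 109 CPM in S1P libraries, again with no overlap. The log2 fold change was -0.31 ± 0.07 (edgeR adjusted p = 0.00824) and -0.33 without S1P replicate 2 (edgeR adjusted p = 0.00224). It was the one core subunit called in both fits. Ndufv2, which holds an iron-sulfur cluster next to Ndufv1, was at 97.8, 99.0 and 100.6 CPM in vehicle and 81.5, 91.1 and 93.0 in S1P libraries. These groups did not overlap either, yet the difference of -0.17 ± 0.07 did not pass the test (edgeR adjusted p = 0.0994). Leaving out S1P replicate 2 gave -0.19 (edgeR adjusted p = 0.0471), past the p threshold and inside the size threshold.

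In the Q module, Ndufs7 carries the last cluster before ubiquinone. Ndufs7 was at 21.0, 20.1 and 20.3 CPM in vehicle and 17.2, 13.5 and 17.4 in S1P libraries. The S1P libraries were all lower, replicate 2 most of all. The log2 fold change was -0.35 ± 0.11 (edgeR adjusted p = 0.0339), and -0.25 without S1P replicate 2 (edgeR adjusted p = 0.0590), so the call was lost without that library, it held in 2 of the 6 fits that left out 1 library each, and DESeq2 did not make it (adjusted p = 0.0516). Exons of Gamt on the opposite strand cover 49.4% of Ndufs7 exon sequence, and the counting setting for strand was not given in the sources used here.

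Ndufs3, a structural subunit of the same module, was at 57.5, 55.5 and 57.3 CPM in vehicle and 54.6, 39.5 and 47.2 in S1P libraries. The S1P levels were lower but spread widely, and the difference of -0.26 ± 0.10 did not pass the test (edgeR adjusted p = 0.0767). It was -0.15 without S1P replicate 2, and 35.4% of its 31-base stretches recur in other genes.

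Ndufs8, which carries iron-sulfur clusters next to Ndufs7, was the exception in the core. It was at 30.6, 35.4 and 35.9 CPM in vehicle and 36.0, 33.8 and 40.9 in S1P libraries. The groups overlapped and the log2 fold change was 0.12 ± 0.10 (edgeR adjusted p = 0.378).

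**Figure D2:**
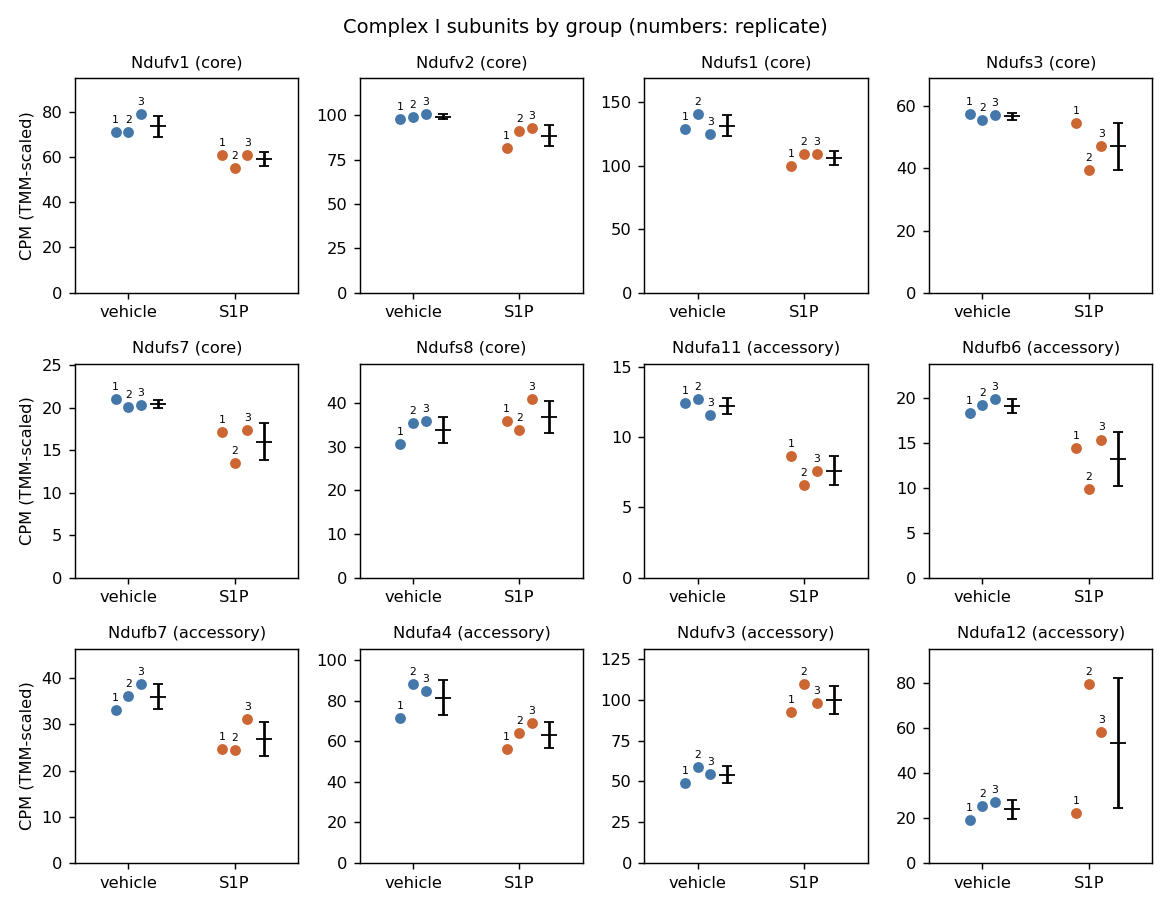
Level in CPM after TMM scaling (y axis from 0) of 6 core subunits and 6 accessory subunits in each library. Numbered points are the replicates of vehicle and S1P, and the bars give mean ± SD (n = 3). The S1P points lie below the vehicle points in every core panel except Ndufs8, above them for Ndufv3, and within or above them for Ndufa12, where S1P replicate 1 is at 22.3 CPM and replicate 2 at 79.2.

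Accessory subunits were called in both directions. Of the 30, 7 were called lower and 2 higher, beside 10.4% and 12.7% of all tested genes, 20 had a log2 fold change below 0, and the median was -0.12. Without S1P replicate 2 the calls were 5 lower and 1 higher and the median was -0.11. The difference between core and accessory medians was not tested.

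Upstream sequences are printed for 4 accessory subunits that carry the contrast, namely Ndufa11 and Ndufb7 among the lower and Ndufv3 and Ndufa12 among the higher ones. They are the 250 bases before the start of transcription from RefSeq on GRCm38.p6, a different build from that of the gene positions given with the levels, read 5′ to 3′ on the gene's strand. Capitals mark a match to the recognition letters of NRF1 (GCGCA, any base, then GCGC) or of ETS factors (CCGGAAG),groups of factors known to act on respiratory chain genes.
Ndufa11: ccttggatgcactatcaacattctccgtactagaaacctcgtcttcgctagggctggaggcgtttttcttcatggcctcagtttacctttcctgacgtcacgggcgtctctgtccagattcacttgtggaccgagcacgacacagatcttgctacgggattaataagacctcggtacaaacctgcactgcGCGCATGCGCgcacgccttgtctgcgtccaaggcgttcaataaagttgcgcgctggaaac
Ndufb7: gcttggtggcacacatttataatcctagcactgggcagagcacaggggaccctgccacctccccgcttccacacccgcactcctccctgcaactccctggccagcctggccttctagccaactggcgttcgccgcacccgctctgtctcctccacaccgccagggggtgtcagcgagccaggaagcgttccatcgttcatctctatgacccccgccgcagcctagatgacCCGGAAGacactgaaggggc
Ndufv3: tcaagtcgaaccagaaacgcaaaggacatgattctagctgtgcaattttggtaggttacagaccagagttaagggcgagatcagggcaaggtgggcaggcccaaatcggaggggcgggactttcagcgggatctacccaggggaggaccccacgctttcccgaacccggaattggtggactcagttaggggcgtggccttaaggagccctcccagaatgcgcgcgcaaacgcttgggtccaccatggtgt
Ndufa12: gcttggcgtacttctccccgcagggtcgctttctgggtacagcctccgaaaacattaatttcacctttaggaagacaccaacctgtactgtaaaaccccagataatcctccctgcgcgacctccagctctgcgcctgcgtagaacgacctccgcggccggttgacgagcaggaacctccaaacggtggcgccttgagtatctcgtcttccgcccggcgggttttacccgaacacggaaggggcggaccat
They lie at chr17:56717512-56717761, chr8:83566508-83566757, chr17:31519865-31520114 and chr10:94198785-94199034, all on the plus strand. The NRF1 match of Ndufa11 begins 60 bases before the start and the ETS match of Ndufb7 20 bases before it.

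Windows from 250 bases before to 50 after the start were taken for 33 of the 37 subunits, 35 windows in all. Ndufs1 and Ndufb9 were among those with no entry. Chromosome 18, which holds Ndufa2, was left out of the subunit windows but not out of the set of all windows. On either strand, the NRF1 letters occurred in 8 of the 35 windows (22.9%) and in 4.60% of all 32851 windows. The YY1 letters AAGATGGC occurred in 7 (20%), never wholly within the 250 bases before the start, and in 2.75% of all windows, and the ETS letters occurred in 4 (11.4%) and in 8.86%. Windows of the 9 called-lower subunits with an entry held NRF1 letters for Ndufa11, ETS letters for Ndufb6 and Ndufb7, and YY1 letters for Ndufa9, Ndufb8 and Ndufs7. In all, 7 subunits held NRF1 letters and 4 held ETS letters. The others with NRF1 letters were Ndufa5, Ndufa6, Ndufa8, Ndufb4, Ndufs5 and Ndufs6, and those with ETS letters Ndufs3 and Ndufs8. None of these was called, so the marks in the printed sequences do not stand for the list. The letters TGATGCAA of an ATF4-CHOP composite element occurred in none of the 35 windows and in 0.895% of all windows. No motif contains another. A match is a description only, and a missing match says only that these letters are not in the window.

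In the membrane arm, Ndufa11 fell furthest of all 37 subunits. It is an accessory subunit of the proximal arm that sits where complex I meets complex III in supercomplexes, and it lies at chr17:57024322-57031247 (GRCm39). Its level was 12.4, 12.7 and 11.6 CPM in vehicle and 8.67, 6.58 and 7.62 CPM in S1P libraries. Every S1P library was lower than every vehicle library, and the log2 fold change was -0.67 ± 0.13 (edgeR adjusted p = 0.00349), or -0.57 without S1P replicate 2 (edgeR adjusted p = 0.00412). It stayed called lower in all 6 fits that left out 1 library each. The other 8 subunits of the proximal arm ran from -0.34 for Ndufc1 to 0.31 for Ndufs5 and none of them was called. Ndufs5, at 0.02 without S1P replicate 2, has 44.7% of its 31-base stretches in Ndufs5-ps too. Ndufa10, at -0.20 (edgeR adjusted p = 0.0454), passed the p threshold alone.

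In the distal arm, 4 of the 11 Ndufb subunits were called lower, beside 10.4% of all tested genes, and the median was -0.11. Without S1P replicate 2, 3 were called lower, beside 9.17% of tested genes, and the median was -0.12. Ndufb6 was at 18.3, 19.2 and 19.9 CPM in vehicle and 14.5, 9.83 and 15.4 in S1P libraries, with no overlap and its lowest value in S1P replicate 2. Its log2 fold change was -0.52 ± 0.14 (edgeR adjusted p = 0.0181), and -0.36 without that library (edgeR adjusted p = 0.0145). Ndufb7, which faces the intermembrane space, was at 33.1, 36.1 and 38.6 CPM in vehicle and 24.8, 24.5 and 31.1 in S1P libraries. The groups again did not overlap, and the log2 fold change was -0.43 ± 0.11 (edgeR adjusted p = 0.0120), or -0.37 without S1P replicate 2 (edgeR adjusted p = 0.0149).

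Ndufb8, whose protein is widely used as a marker of assembled complex I, was at 7.03, 6.75 and 7.14 CPM in vehicle and 5.12, 4.30 and 5.18 in S1P libraries. These non-overlapping groups differed by -0.51 ± 0.15 (edgeR adjusted p = 0.0234) and by -0.44 without S1P replicate 2 (edgeR adjusted p = 0.0491). DESeq2 did not call it (adjusted p = 0.0613). Of its 31-base stretches, 69.6% recur in Gm20538 or another gene in the same orientation, so its counts are uncertain. Ndufb11 was at 37.9, 46.9 and 43.1 CPM in vehicle and 37.1, 28.7 and 34.2 in S1P libraries. The gap between the closest libraries of the groups was small, and its log2 difference of -0.35 ± 0.11 (edgeR adjusted p = 0.0329) became -0.25 without S1P replicate 2 (edgeR adjusted p = 0.0561), where the call was lost. Exons of Rbm10 on the opposite strand cover 67.8% of its exon sequence. The other 7 ran from -0.15 for Ndufb5 to 0.05 for Ndufb3 and were not called, with Ndufb9 (-0.0055), Ndufb10 (0.03) and Ndufb2 (-0.04) close to 0. Without S1P replicate 2, Ndufb9 was at -0.11, Ndufb10 at -0.09, Ndufb2 at -0.08 and Ndufb3 at -0.01.

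In the Q module, the accessory subunit Ndufa9, which sits beside the ubiquinone channel, was at 84.7, 80.5 and 80.9 CPM in vehicle and 71.2, 57.3 and 66.5 in S1P libraries. All S1P libraries were lower, and the log2 fold change was -0.33 ± 0.08 (edgeR adjusted p = 0.0121), or -0.25 without S1P replicate 2 (edgeR adjusted p = 0.00896). The loss of the call there was one of size, not of p. Ndufa4 bears a complex I name but is now assigned to complex IV, cytochrome c oxidase. It was at 71.7, 88.1 and 84.7 CPM in vehicle and 56.1, 64.1 and 69.2 in S1P libraries, so the groups did not overlap. Its log2 fold change was -0.37 ± 0.10 (edgeR adjusted p = 0.0153) and -0.38 without S1P replicate 2. Leaving Ndufa4 out gave 6 lower among 29 accessory subunits, beside 10.4% of all tested genes, and a median of -0.11. With S1P replicate 2 left out as well, 4 were lower, beside 9.17% of tested genes.

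Both subunits called higher were accessory subunits of the N module. Of its 7 accessory subunits 2 were called higher and none lower by edgeR, beside 12.7% and 10.4% of all tested genes. None was called lower by DESeq2 or limma-voom, and none was lower at an unadjusted p under 0.05. The median log2 fold change of the 7 was 0.25. Without S1P replicate 2 it was 0.0098 and 1 was called higher, beside 11.6% of tested genes. Ndufv3, a small subunit beside Ndufv1 and Ndufv2, lies at chr17:31739052-31751735 (GRCm39). Its level was 48.7, 58.9 and 54.6 CPM in vehicle and 92.5, 109 and 98.1 CPM in S1P libraries. The lowest S1P library was well above the highest vehicle library, and the log2 fold change was 0.89 ± 0.09 (edgeR adjusted p = 6.62e-05), or 0.82 without S1P replicate 2 (edgeR adjusted p = 6.96e-06). Ndufv3 was called higher in all 6 fits that left out 1 library, and it was the one subunit whose S1P libraries all lay above the vehicle libraries.

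Ndufa12, at chr10:94034582-94057450 (GRCm39), is a late-joining subunit that is a paralog of the assembly factor Ndufaf2. Its level was 18.9, 25.2 and 27.1 CPM in vehicle and 22.3, 79.2 and 58.3 CPM in S1P libraries. S1P replicate 1 lay within the vehicle range while replicates 2 and 3 were far above it. The log2 fold change of 1.15 ± 0.34 (edgeR adjusted p = 0.0248) was the largest of the 37. It was not called by DESeq2 (1.14, adjusted p = 0.0946) or limma-voom (0.94, adjusted p = 0.0820). Without S1P replicate 2 it was 0.74 (edgeR adjusted p = 0.0594), and the call held in 1 of the 6 fits that left out a library. Of its 31-base stretches, 25.8% recur in Ndufa12-ps.

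The other N-module accessory subunits with a log2 fold change above 0 were Ndufs6 and Ndufa6. Ndufs6, a zinc-binding subunit, was at 30.96, 36.9 and 38.1 CPM in vehicle and 30.5, 55.6 and 41.0 CPM in S1P libraries (log2 fold change 0.25, edgeR adjusted p = 0.303). Ndufa6 was at 26.1, 28.8 and 31.9 CPM in vehicle and 29.9, 43.9 and 36.7 in S1P libraries (0.34, edgeR adjusted p = 0.0703), and it was called higher with no filter, with the length offset, and without S1P replicate 1. In both, S1P replicate 2 was highest and replicate 1 was within or below the vehicle range. Without S1P replicate 2 the log2 fold changes were 0.01 and 0.20.

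Library by library, the core medians of the S1P libraries lay close together. The median log2 ratio of the core to the vehicle mean was -0.25, -0.34 and -0.24 in S1P replicates 1, 2 and 3, and in each of these libraries 6 of the 7 core subunits were below every vehicle library. For the vehicle libraries, each set against the mean of the other 2, the core medians were -0.04, -0.0030 and 0.03. The accessory medians were -0.22, -0.12 and 0.02 in the S1P libraries and -0.22, 0.07 and 0.09 in the vehicle libraries. In vehicle replicate 1, 26 of the 30 accessory subunits were below the mean of the other vehicle libraries. Accessory subunits below every vehicle library numbered 23, 15 and 9 in S1P replicates 1, 2 and 3, and those above every vehicle library numbered 1, 13 and 7. Of all tested genes, 37.1%, 38.9% and 36.8% were below every vehicle library in these S1P libraries, and 37.4%, 41.4% and 37.1% were above.

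**Figure D3:**
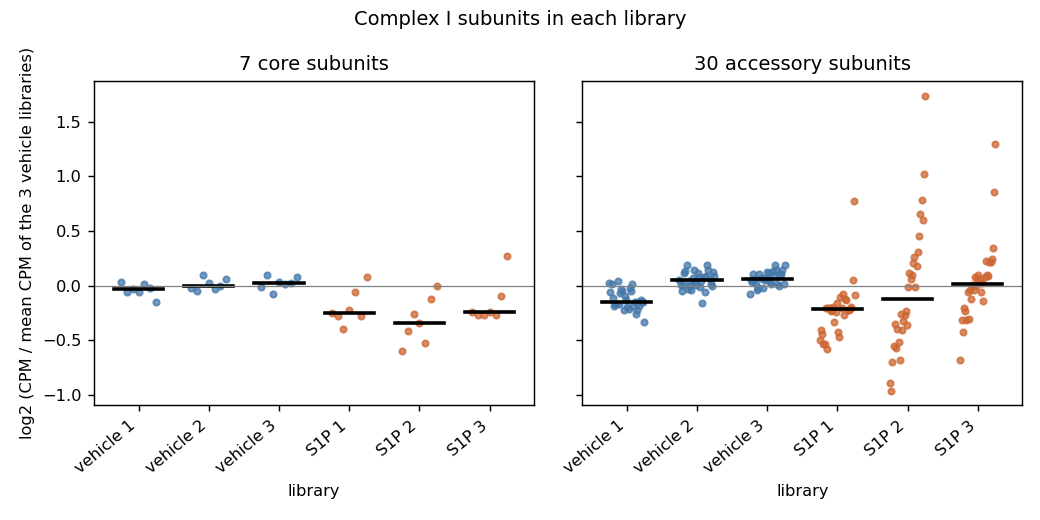
Log2 ratio of each subunit's CPM to its mean over the 3 vehicle libraries (y axis) in each library, for the 7 core subunits and the 30 accessory subunits. Points are genes and black lines are medians. Core medians of the S1P libraries lie together between -0.34 and -0.24, while the accessory subunits fan out in S1P replicates 2 and 3.

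The accessory subunits were spread more widely in the S1P libraries. The SD of their log2 ratios was 0.131, 0.119 and 0.101 in the vehicle libraries and 0.246, 0.597 and 0.364 in S1P replicates 1, 2 and 3. Each vehicle library was set against the mean of the other 2 and each S1P library against the mean of all 3 vehicle libraries. The S1P values thus hold the differences between the groups as well as the spread between libraries. Neither the SD nor the share at least 0.5 away was computed for all tested genes, so a spread particular to these subunits is not shown. In S1P replicate 2, Ndufa12, Ndufa6, Ndufs5, Ndufs6 and Ndufv3 were at least 0.5 above the reference, and Ndufa11, Ndufa7, Ndufa9, Ndufb11, Ndufb6, Ndufb7 and Ndufb8 at least 0.5 below it. In S1P replicate 3 the corresponding subunits were Ndufa12 and Ndufv3 above and Ndufa11 below, and in replicate 1 they were Ndufv3 above and Ndufa4, Ndufb7 and Ndufc1 below. Summed over the core, the level was 517, 539 and 536 CPM in vehicle and 448, 433 and 466 CPM in S1P libraries, with no overlap. Summed over the accessory subunits it was 982, 1105 and 1116 CPM in vehicle and 944, 1100.0 and 1120 CPM in S1P libraries, which overlapped. The ratio of the core sum to the accessory sum was 0.526, 0.488 and 0.480 in vehicle and 0.475, 0.394 and 0.416 in S1P libraries.

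Levels per length placed the subunits over a wide range. In vehicle libraries the mean ran from 1.23 CPM per kilobase of canonical transcript for Ndufb2 to 154 for Ndufa4, a 125-fold range with a median of 33.8. After Ndufa4 came Ndufc2 at 79.3 ± 3.4 (SD, n = 3) and Ndufb7 at 57.7 ± 4.4, and the latter does not stand apart from Ndufa9 at 56.8 ± 1.6 and Ndufv2 at 55.8 ± 0.8. The low end was held by Ndufb2, Ndufb9 at 4.32 ± 0.44 and Ndufs6 at 9.83 ± 1.06, whose canonical transcripts are 4389, 4197 and 3593 bases long. The 7 core subunits lay close together, from 24.6 for Ndufs7 to 55.8 for Ndufv2. The order was largely kept with S1P (Spearman's rho 0.901 over the 37 genes, which share the libraries). The log2 fold change bore little relation to transcript length (Pearson's r 0.06, Spearman's rho 0.10) or to the vehicle level (-0.03 and -0.08) over these 37 genes.

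**Figure D4:**
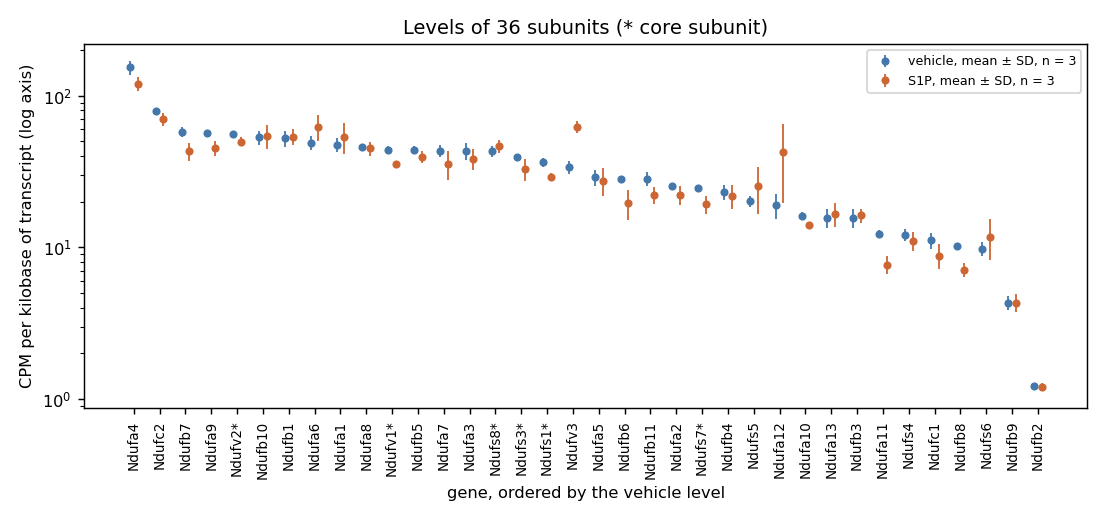
Level in CPM per kilobase of canonical transcript (log axis) of 36 of the 37 subunits, ordered by the vehicle mean; points are means and bars SD (n = 3), and asterisks mark core subunits. Ndufa4 leads at 154 and Ndufb2 is last at 1.23 in vehicle libraries; Ndufv3 and Ndufa12 rise above their vehicle points with S1P.

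Some of the subunits share sequence or exons with other genes. Of the 37, 12 had over 25% of their exon sequence under opposite-strand exons or over 25% of their 31-base stretches in another gene, and of these 3 were called lower and 1 higher, beside 10.4% and 12.7% of all tested genes, with a median of -0.06. They were Ndufb8, Ndufs3, Ndufb4, Ndufs5 and Ndufa12 by shared stretches and Ndufs7, Ndufb11, Ndufa3, Ndufb9, Ndufb1, Ndufa13 and Ndufa6 by opposite-strand exons. Among the other 25, 7 were lower and 1 higher, with a median of -0.18. Without S1P replicate 2, Ndufb8 alone of the 12 was still called, beside 9.17% of tested genes lower and 11.6% higher. Ndufs7, Ndufb11 and Ndufa12 were then not called, nor were Ndufa9 and Ndufv1 of the other 25.

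The core subunits encoded by mitochondrial DNA were high in 1 library. Their summed level was 18361, 21478 and 20587 CPM in vehicle and 19130.0, 43689 and 21848 CPM in S1P libraries, so S1P replicate 2 alone was far above the rest. The 7 genes mt-Nd1, mt-Nd2, mt-Nd3, mt-Nd4, mt-Nd4l, mt-Nd5 and mt-Nd6 had log2 fold changes from 0.26 to 0.57. None was called by edgeR, beside 12.7% of all tested genes higher and 10.4% lower, or by DESeq2 or limma-voom. With edgeR 2 had an unadjusted p under 0.05, as had 5382 of all 13299 tested genes in either direction. The median of 0.45 became -0.02 without S1P replicate 2. There mt-Nd3 alone was called higher, at 0.44 (edgeR adjusted p = 0.0362), beside 11.6% of tested genes. The ratio of the mitochondrial sum to the nuclear core sum was 35.5, 39.8 and 38.4 in vehicle and 42.7, 101 and 46.9 in S1P libraries, so that all S1P libraries were above all vehicle libraries. Library selection on poly(A) bears on how mitochondrial transcripts are sampled, and its part was not tested.

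Ndufab1, the acyl carrier protein that is also a complex I subunit but has a symbol outside the rule, also fell. It was at 55.9, 53.2 and 55.4 CPM in vehicle and 41.0, 40.7 and 47.6 in S1P libraries, and its log2 fold change was -0.35 ± 0.08 (edgeR adjusted p = 0.00824), or -0.31 without S1P replicate 2 (edgeR adjusted p = 0.00765). Ndufa4l2, a paralog of Ndufa4 known from hypoxic cells, stayed at or below 0.281 CPM and was not tested.

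Assembly factors build the complex without being part of it. Of 19 listed, 18 were tested and 4 were called lower, beside 10.4% of all tested genes, with a median of -0.18. The count was 3 without S1P replicate 2, beside 9.17%. Ndufaf4, an early assembly factor, was at 61.7 ± 4.3 CPM (SD, n = 3) in vehicle and 36.7 ± 3.5 in S1P libraries, with a difference on the log2 scale of -0.75 ± 0.09 (edgeR adjusted p = 0.000167). Acad9, an acyl-CoA dehydrogenase needed for assembly of the membrane arm, was lower (log2 fold change -0.48, edgeR adjusted p = 0.00116) as was Ndufaf6 (-0.45, edgeR adjusted p = 0.0181), and both were also called without S1P replicate 2. Foxred1, at -0.32 (edgeR adjusted p = 0.0219), was not called without it.

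Of 11 tested factors and coactivators that act on respiratory genes, 2 were lower beside 10.4% of all tested genes. Pprc1, a coactivator of the PGC-1 family, was lower (log2 fold change -0.50, edgeR adjusted p = 0.000299) and Esrra, the nuclear receptor ERR-alpha, was lower too (-0.37, edgeR adjusted p = 0.0361), a call that held in 1 of the 6 fits that left out 1 library. Without S1P replicate 2, 3 were lower, namely Pprc1, Esrra and Tfb2m, beside 9.17% of tested genes. Tfb2m, at -0.2998 with all libraries, just missed the size threshold there, and it was called in 3 of the 6 fits. Nrf1 was at 66.6, 67.7 and 66.7 CPM in vehicle and 54.8, 57.3 and 57.2 in S1P libraries, below the vehicle range in each, with a log2 fold change of -0.25 that passed the p threshold only (edgeR adjusted p = 0.0155). Tfam, which packages mitochondrial DNA, was at -0.07 (edgeR adjusted p = 0.470).

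The other respiratory complexes also held subunits that were lower, beside 10.4% of all tested genes, or 9.17% without S1P replicate 2. In complex II, 2 of 4 subunits were lower, Sdhb (-0.42) and Sdhd (-0.44), also without S1P replicate 2, and the median was -0.34. In complex III, 4 of 9 were lower, led by Cyc1, cytochrome c1, at -0.62, and the median was -0.21; without S1P replicate 2, 2 were lower. In complex IV, 1 of 11 nuclear subunits was lower, Cox5a (-0.48), which is near the share of all tested genes. Cox7a2l, a supercomplex factor, was higher (0.31), beside 12.7% of all tested genes higher. The median was -0.19. Without S1P replicate 2 Cox5a was still called lower, and Cox7a2l was not called, at 0.29. For complex V, the ATP synthase, 5 of the 17 tested genes on its list were lower, and the median was -0.23. They were led by the c-ring genes Atp5mc1 (-0.72) and Atp5mc3 (-0.67), and 3 of the 5 were lower without S1P replicate 2. The list held Atp5po under an identifier without counts, so that subunit is not among the 17. The differences between these medians and that of complex I were not tested.

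**Figure D5:**
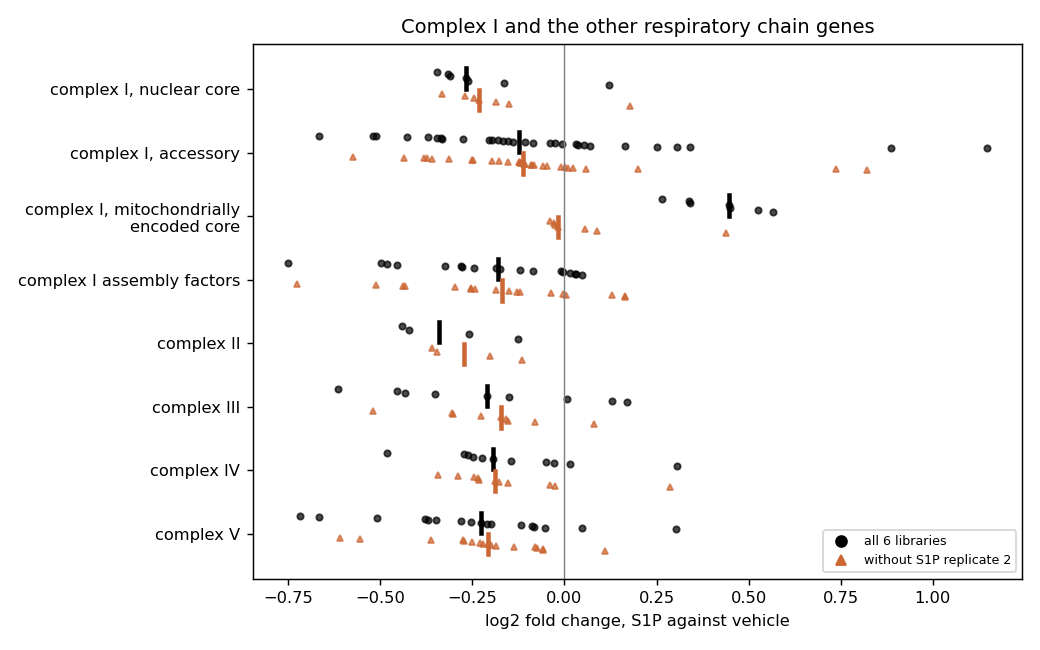
Log2 fold change of S1P against vehicle (x axis) for genes of complex I, its assembly factors and complexes II to V. Points are genes, bars are medians, black for all 6 libraries and orange without S1P replicate 2. With all 6 libraries the nuclear groups have medians from -0.34 to -0.12, and the mitochondrially encoded core moves from a median of 0.45 to -0.02 when S1P replicate 2 is left out.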

How the data were processed

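The authors deposited a table of raw read counts per Ensembl gene for all 6 libraries. The submitters' processing notes name Trim Galore, STAR, featureCounts, DESeq2 and the build GRCm39; their versions, the strand setting and the treatment of multi-mapping reads are not given in the sources used here. Of 56941 identifiers, 56323 matched GENCODE vM39, which gave symbols and canonical transcript lengths. Counts were fitted with edgeR 4.0.16 in R 4.3.3 (filterByExpr, TMM factors, quasi-likelihood test, treatment as the only term), with p-values adjusted by Benjamini-Hochberg over 13299 genes and called at an adjusted p under 0.05 with at least 0.3 of log2 fold change. CPM are TMM-scaled. The script was tested on simulated data. The counts of the main lists are given beside shares of all tested genes, with no test of a list.

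The members and lists were chosen with earlier results of these data known. Named were core subunits (1 is not reported here by name), accessory subunits past both thresholds, members whose call or sign turned without S1P replicate 2, the largest and smallest changes, the highest and lowest levels per length, and called genes of the other lists. Alternatives were DESeq2 1.42.0, limma-voom (limma 3.58.1), other scalings, filters and thresholds, a length offset, a replicate block, and each library left out in turn. Subunit means ran from 78.3 to 1747 counts per library, and what set the precision was not tested.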

Additional observations from a re-analysis of the deposited data

How the results depend on the processing

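The direction of the medians held under every alternative run: leaving out 1 library gave -0.25 to -0.11 over all subunits, -0.30 to -0.23 over the core and -0.23 to -0.04 over the accessory subunits. The counts moved more. With 1 library left out, 3 to 10 subunits were lower and 1 to 6 higher: 3 lower without vehicle replicate 3, 4 without vehicle replicate 2, 6 without S1P replicate 2, and 6 higher without S1P replicate 1. The higher count was 1 with DESeq2 and 1 with limma-voom, where Ndufa12 was lost. At an adjusted p of 0.01, 3 subunits were lower and 1 higher, among 826 genes lower and 1031 higher. Lower counts were 8 with DESeq2, which lost Ndufb8 and Ndufs7, 8 with upper-quartile factors and 7 with a length offset. Signs turned for members near 0: Ndufb9 was at 0.018 with upper-quartile factors and -0.11 to 0.063 with 1 library left out, and Ndufb10 at -0.0012 with no filter and -0.092 to 0.17. With 1 library left out, Ndufa13 ranged from -0.059 to 0.20, Ndufb3 from -0.066 to 0.14 and Ndufa8 from -0.088 to 0.061. In the same fits Ndufb1 ranged from -0.077 to 0.14, Ndufa5 from -0.20 to 0.091 and Ndufb4 from -0.22 to 0.045. With all libraries Ndufa5 was at -0.09 and Ndufb4 at -0.11. For these shifts the cause was not tested. Replicate numbers did not pair the samples (correlations of deviations 0.12, -0.0060 and 0.048), and the replicate block gave 10 lower and 3 higher, adding Ndufa6.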
